A study of Mus musculus with 199 samples.

Results

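The 40 libraries described here came from the full collection of a multiplex-GAM experiment: 34 libraries made from caps that held 4 nuclear profiles each (4NP) and 6 water controls, whose caps the labels describe as left empty. For 1 of them, G1H8, which had more calls than any profile cap, the calls cannot tell whether the cap was empty. They were chosen by their sample titles, out of 199 libraries in a table of 11 experiments that did not pass quality control. All came from 46C mouse ES cells, a Sox1-GFP knock-in line derived from E14tg2a (129/Ola), so the line and its reporter were shared by every 4NP library. The profiles came from cryosections of 220 nm stained with 1% cresyl violet, per the labels. Amplification with the WGA4 kit for 25 PCR cycles and Nextera libraries were common to the profile caps and the controls. Another 2 libraries, from empty caps that received 5 ng of human genomic DNA, are shown for reference. Libraries that passed quality control are not analysed here, so each comparison below is between libraries that failed. A cap with 4 profiles also need not hold 4 nuclei, since a slice through a cell can miss the nucleus.

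In genome architecture mapping (GAM), a thin slice is cut through a frozen nucleus and its DNA is amplified and sequenced. Each chromosome occupies its own territory in the nucleus, so a slice crosses some territories and misses others, and a chromosome that is crossed is met as stretches of neighbouring windows rather than as scattered ones. The method counts how often a pair of loci shares a slice, as a measure of their distance, and multiplex-GAM places several profiles in one cap to save libraries. An empty cap is carried through the same amplification to show what is read without a profile.

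The deposited values were calls, 1 for a positive 40 kb window and 0 otherwise, over 65983 windows of chromosomes 1 to 19 and X (build mm9). A chromosome was called present in a library when at least 5% of its windows were positive. A run of at least 3 directly consecutive positive windows, 120 kb or longer, was called a stretch. Sequencing depth cannot be read from such calls, and little mouse DNA cannot be told apart from few reads. Wilson 95% intervals below cover counting error only.

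Most 4NP libraries held almost no mouse windows, and 1 water control held more than any of them. The number of called windows in a 4NP library ran from 1 to 9222, with a median of 44. Among them, 28 of 34 had under 1% of the genome called, 24 had at most 100 calls, and 3 had fewer than 10. The 6 water controls had 35 calls (G1H2), 42 (G1H4), 51 (G1G6), 14094 (G1H8), 72 (G1H10) and 314 (G1G12). Of these, 5 were below 1% of the genome and G1H8 lay above all 34 4NP libraries. The human DNA controls had 26 and 35 calls. Of the 34 4NP libraries, 17 lay within the range of the 5 low water controls, 9 lay below it and 8 lay above it.

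The calls were concentrated in very few libraries. G1F7 had 9222 called windows, 13.98% of the genome (13.7% to 14.2%), and G1E3 had 7337, 11.12% (10.9% to 11.4%). Together they held 63.6% of the 26046 calls of all 34 4NP libraries. Next came G1G4 with 4.13%, G1C4 with 2.62%, G1F10 with 2.48% and G1H11 with 1.30%. In the water controls G1H8, at 21.36% (21.05% to 21.7%), held 96.5% of 14608 calls. The other 5 water controls ran from 0.0530% to 0.476% of the genome.

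**Figure D1:**
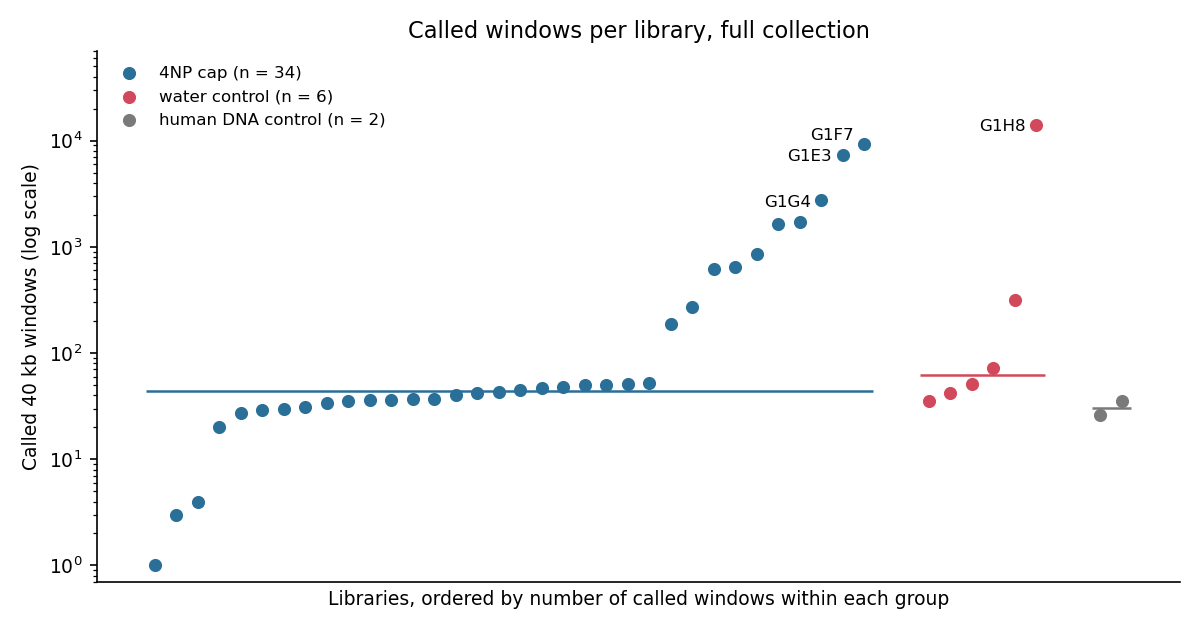
Called 40 kb windows on a log scale for each of 34 4NP libraries, 6 water controls and 2 human DNA controls, ordered within each group, with a line at the group median. Most 4NP points and 4 water controls sit between 20 and 72 calls, G1F7 and G1E3 stand at 9222 and 7337, and the water control G1H8 stands highest at 14094.

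The first question is whether caps with profiles held more called windows than empty caps. On the log10 scale of called windows plus 1, the mean was 1.94 ± 0.87 (SD, n = 34) in 4NP libraries and 2.24 ± 1.00 (SD, n = 6) in water controls. These means correspond to 86.2 and 171 windows. The difference of -0.30 was smaller than the spread of either group (exact permutation test over all splits, two-sided, p = 0.460; after adjustment over 9 measures, p = 0.689). A 4NP library had more calls than a water control in 71 of the 204 pairs, or 34.8%, and in 71 of 170 without G1H8. Without G1H8 the water mean was 1.85 ± 0.38 (SD, n = 5), or 70.4 windows, and the difference turned to 0.09 (exact permutation p = 0.830, adjusted p = 0.884). So the direction of the mean difference rested on 1 control, and neither direction exceeded the spread.

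Chromosomes were present in few of the libraries of either group. At least 1 chromosome was present in 5 of 34 4NP libraries: 18 in G1E3, 15 in G1F7, 7 in G1G4, 2 in G1F10 and 1 in G1C4. The other 29 had none. Of the water controls, G1H8 had 18 chromosomes present and the others had 0, with no chromosome above 0.847% called in any of those 5. The mean number was 1.26 ± 4.08 (SD, n = 34) against 3.00 ± 7.35 (SD, n = 6), or -1.74 for 4NP minus water (p = 0.648 in the exact permutation test, adjusted p = 0.734). Without G1H8 it was 1.26 against 0 (exact permutation p = 0.726, adjusted p = 0.884). With 0 in 29 of 34 4NP libraries and in those 5 controls, this test had little room to pass. It does not show that the groups are alike.

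The 3 libraries above 5% of the genome each had chromosomes with far fewer calls than the others. Chromosome 18 was among the lowest in both 4NP libraries, and the rest of the low ones differed. In G1F7, chromosome 11, a gene-dense autosome, had 29.8% of its windows called, chromosome 4 had 26.9% and chromosome 12 had 26.02%. In the same library chromosome 5 had 0 of 3814 windows (Wilson upper limit 0.101%), chromosome 18 had 1 call and chromosome 19 had 2. Chromosome 3 was also low in G1F7, at 2.23%. In G1E3 chromosome 3 was the highest, at 20.7%, followed by chromosome 11 at 20.0% and chromosome 10 at 18.6%, and the lowest were chromosome 18 at 1.59% and chromosome 1 at 3.06%. Chromosome 1 stood at 18.1% in G1F7, and chromosome 5 at 11.9% in G1E3. So chromosome 3 led in one library and was near the bottom in the other.

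The water control G1H8 was uneven between chromosomes too. Its highest share was 35.2% on chromosome 15, followed by 31.6% on chromosome 17, 30.9% on chromosome 6 and 30.2% on chromosome 3. Chromosome 8 had 3.37% of its windows called and chromosome 9 had 7.67%, although the others among its autosomes had at least 18.02%. On chromosome 8 G1F7 had 22.01% and G1E3 16.2%, so there both 4NP libraries were above this control. On chromosome 18 the order was the other way round, with 27.3% in G1H8. The values of each chromosome come from 1 library each and have no replicate.

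Libraries of 1% to 5% coverage had from 0 to 7 chromosomes present. In G1G4 the present chromosomes were 11 (11.8%), 19 (10.8%), 14 (9.90%), 3 (7.32%), 9 (6.67%), 18 (5.95%) and 7 (5.11%). In G1C4 only chromosome 2 was present, at 9.86%, with 25.96% of the library's calls, and chromosome 1 followed at 4.56%. The lowest in G1C4 were chromosomes 9 and 13, both at 0.13%. G1F10 had chromosomes 7 (5.98%) and 4 (5.42%), and G1H11 had none. Chromosome 7 was thus present in 4 of the 34 4NP libraries, the most of any. Chromosomes 2, 4, 9, 11 and 14 were present in 3, and chromosomes 1, 5, 18 and X in 1.

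**Figure D2:**
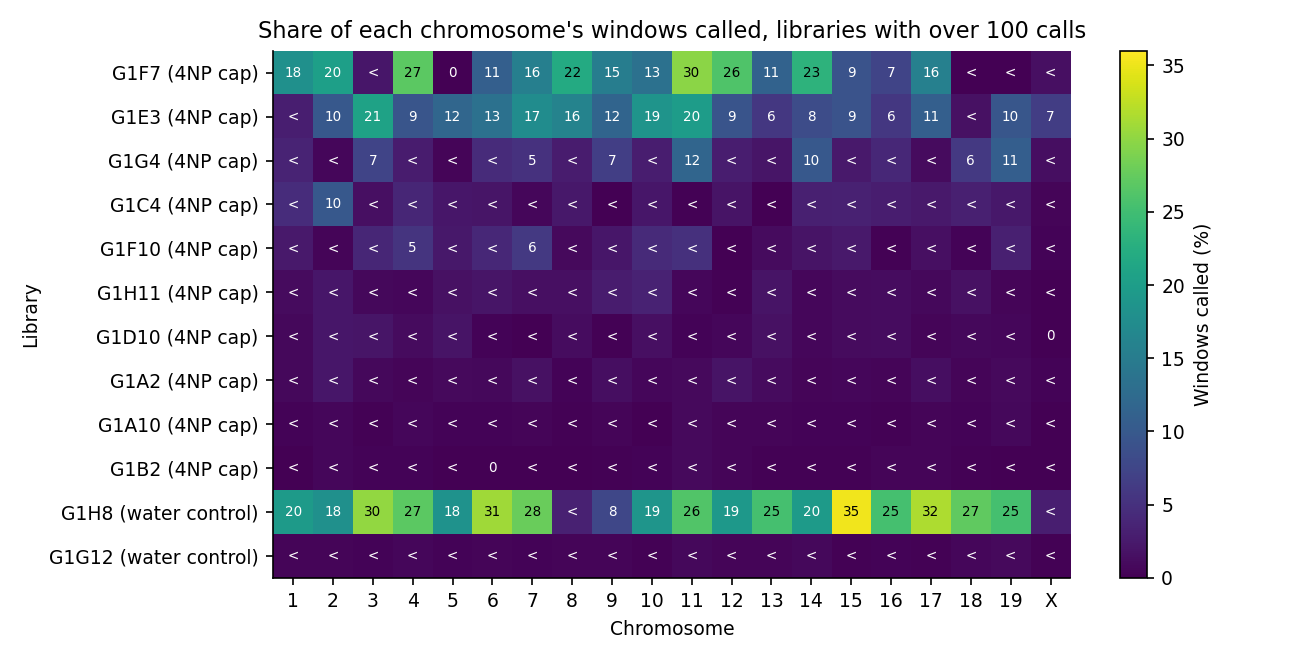
Percent of windows called on each chromosome (columns) in each library with over 100 calls (rows), 10 4NP libraries and 2 water controls. Numbers are printed at 5% or more, < marks a share above 0 and below 5%, and 0 marks no call. Chromosome 18 is low in both G1F7 and G1E3, chromosomes 5 and 19 are near-empty in G1F7 but not in G1E3, and in G1H8 chromosomes 8 and X are low while the others stand at 7.67% or more.

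Tested one by one, no chromosome passed between the groups, in tests of means that a few large libraries dominate. The share of windows called passed an adjusted p of 0.05 on 0 of 20 chromosomes (percent called 0), in the exact permutation test with Benjamini-Hochberg adjustment over 20 chromosomes. Also 0 of 20 had an unadjusted p below 0.05, and the lowest was 0.0829, with an adjusted p of 0.258 (exact permutation). The 4NP mean was lower on 19 chromosomes and higher on 1, chromosome 8, where it was 1.42% ± 4.58 (SD, n = 34) against 0.724% ± 1.31 (SD, n = 6). Without G1H8, again 0 of 20 passed (percent called 0), and the 4NP mean was higher on all 20 (lowest exact permutation p = 0.396, adjusted p = 0.734). Of the 20 chromosomes, the highest 4NP mean was that of chromosome 11, 2.11% ± 6.28 (SD, n = 34), and the lowest was that of X, 0.339% ± 1.15.

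As a description over 20 chromosomes that share the same libraries, the mean share in 4NP libraries had a Pearson r of 0.186 and a Spearman rho of 0.280 with chromosome length, and over the 19 autosomes alone r was 0.342 and rho 0.451. In G1H8 r was -0.298 and rho was -0.349, and over its autosomes -0.208 and -0.260.

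The share of X called was below that of the autosomes as a whole in every library above 1%. E14-derived cells are male, so each autosome has a partner and the X has none. Whether this accounts for the low share of X was not tested, and in G1F7 chromosomes 5, 18 and 19 lay below X. The share of X windows called over that of autosomal windows was 0.575 in G1E3, 0.305 in G1G4, 0.174 in G1C4, 0.137 in G1F10, 0.100 in G1F7 and 0.069 in G1H11. It was 0.135 in G1H8, within the range of these 6 libraries. G1E3 was the highest, with 6.58% of X called (5.86% to 7.37%) against 1.49% in G1F7 (1.16% to 1.90%).

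Of 398 windows on the Y chromosome, at least 1 was called in 5 of 34 4NP libraries, with 16 in G1F7, 10 in G1E3, 6 in G1C4, 3 in G1G4 and 1 in G1H11. All 5 had over 1% of the genome called. The 28 smaller 4NP libraries had 0, but they held so few calls that only a handful would fall on Y at the rate of the larger ones. In the water controls Y was called only in G1H8, at 11 windows. In G1F7, G1E3 and G1H8 the share of Y windows called was below that of the 65983 other windows. Which cells the DNA of G1H8 came from was not tested. The mitochondrial genome, a single window, was called in 9 of 34 4NP libraries and 3 of 6 water controls (G1H8, G1H10 and G1G12), and in neither human DNA control.

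Stretches of neighbouring windows set the large libraries apart from the small ones. No stretch was found in 26 of 34 4NP libraries. The other 8 had 1089 (G1F7), 772 (G1E3), 80 (G1G4), 66 (G1C4), 31 (G1F10), 16 (G1H11), 2 (G1A2) and 2 (G1D10). G1H8 had 1708, G1H10 had 1, and the remaining 4 water controls had none. Of the calls, 68.8% lay in stretches in G1F7, 46.3% in G1E3 and 69.7% in G1H8. In G1C4 it was 13.3%, in G1G4 9.83%, in G1F10 6.84% and in G1H11 6.41%, so the order by stretches was not quite the order by coverage. In total length, stretches covered 254 Mb in G1F7, 136 Mb in G1E3 and 393 Mb in G1H8.

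G1F7 had many more long stretches than G1E3, at a coverage that was not much higher. The median stretch was 160 kb in both and in G1H8. Runs of at least 10 windows numbered 142 in G1F7, 28 in G1E3 and 205 in G1H8, and runs of at least 25 windows numbered 6, 1 and 20. Stretches lay on 19 chromosomes in G1E3, on 17 in G1F7 and on all 20 in G1H8. Over 1309 blocks of 2 Mb, or 50 windows, G1F7 had 654 with no call and 111 with at least 25 windows called. G1E3, with less of the genome, had 447 and 32. G1H8 had 379 and 201. The calls of G1F7 were therefore packed into fewer blocks than those of G1E3, a comparison of 2 libraries without replicates.

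The longest stretch of each of these libraries lay in a different region. In G1F7 it ran over 35 windows at chr11:68360001-69760000 (1.40 Mb, GC content 48.0%), a region with 69 protein-coding genes, among them the mitotic kinase gene Aurkb and the H3K27 demethylase gene Kdm6b. The next in G1F7, 1.2 Mb at chr12:38840001-40040000, held only Dgkb and Etv1 among protein-coding genes. In G1E3 it ran over 28 windows at chr3:7960001-9080000 (1.12 Mb), with Hey1, Mrps28, Stmn2 and Tpd52. In G1H8 it ran over 59 windows at chr2:69080001-71440000 (2.36 Mb), with 28 protein-coding genes, among them the homeobox genes Dlx1 and Dlx2 and the GABA synthesis gene Gad1. Of the windows in the longest stretch of G1F7, 22.9% were also called in G1H8, and of those in the longest stretch of G1E3, 3.57%. Beside the 21.4% of all windows that G1H8 called, neither share is a large overlap.

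One low water control had calls gathered on a single chromosome. In G1H10, 21 of 72 calls lay on X, which is 29.2% of its calls and 0.504% of X windows (0.330% to 0.769%). They included its only stretch, 4 windows at chrX:20440001-20600000 over Cfp, Elk1, Syn1, Timp1 and Uxt. The other low water controls had 0, 1, 4 and 10 calls on X.

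**Figure D3:**
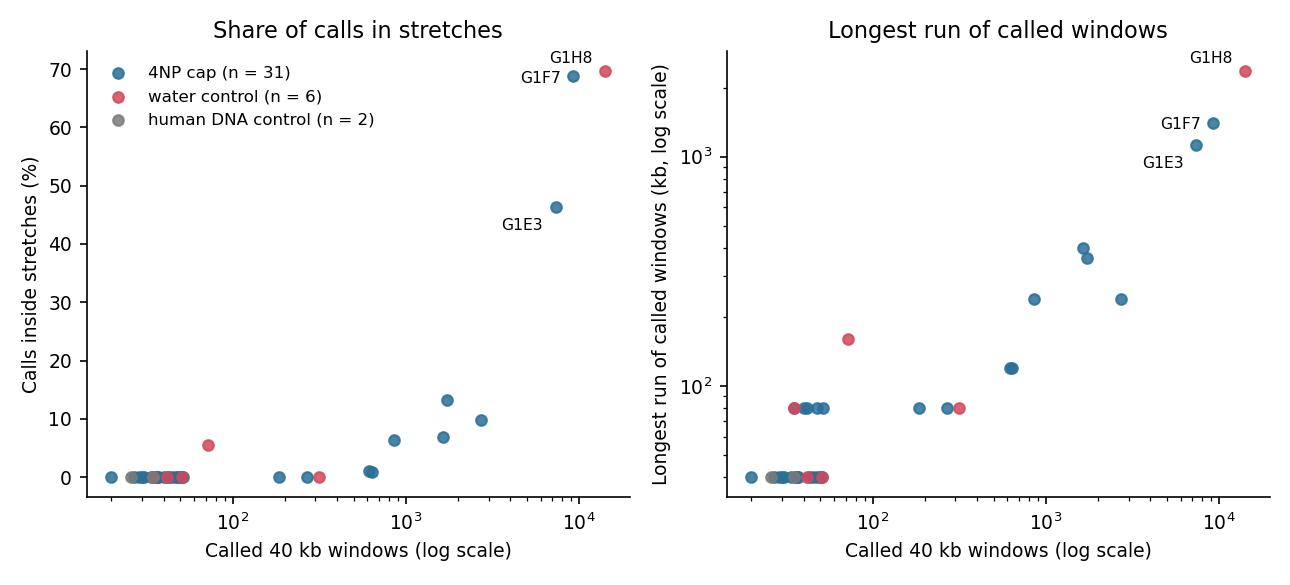
Share of calls in stretches (left, percent) and longest run of called windows (right, kb, log scale) against the number of called windows (log scale), for the libraries with at least 10 calls. G1F7 and G1H8 lie side by side at 68.8% and 69.7%, G1E3 lies lower at 46.3%, and among libraries below 617 calls only G1H10 has a stretch.

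By stretches the tests did not separate the groups either. As 26 of 34 4NP libraries had no stretch and the water mean rested on G1H8, they had little room to do so. They do not show that the groups are alike. The mean number was 60.5 ± 225 (SD, n = 34) in 4NP libraries and 285 ± 697 (SD, n = 6) in water controls (p = 0.130 in the exact permutation test, adjusted p = 0.333), and without G1H8 the water mean was 0.200 ± 0.447 (SD, n = 5; exact permutation p = 0.538, adjusted p = 0.884). The longest run was 3.91 ± 7.40 windows against 11.5 ± 23.3 (exact permutation p = 0.107, adjusted p = 0.333), and 2.00 ± 1.22 without G1H8 (adjusted p = 0.884, exact permutation). Over the 31 4NP libraries with at least 10 calls, 4.95% ± 14.7 of calls lay in stretches, against 12.5% ± 28.1 in 6 water controls (p = 0.185 in the exact permutation test, adjusted p = 0.333). Without G1H8 the water mean was 1.11% ± 2.48 (adjusted p = 0.884, exact permutation). In all 3 measures the sign of the difference turned when G1H8 was left out.

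The calls of the large libraries fell off with distance both in profile caps and in G1H8. At 40 kb from a called window, 64.3% of windows were called in G1F7, 47.0% in G1E3 and 64.5% in G1H8. At 1 Mb the values were 35.1%, 23.7% and 38.8%, and at 10 Mb they were 21.1%, 14.4% and 26.5%. Even at 10 Mb each of these 3 lay above the library's share of the whole genome. As a multiple of that share, G1H8 was the lowest of the 3. At 40 kb the multiple was 4.60 in G1F7, 4.23 in G1E3 and 3.02 in G1H8, and at 10 Mb it was 1.51, 1.30 and 1.24. In G1C4 the share fell from 21.4% at 40 kb to 6.95% at 10 Mb, and in G1H11 from 9.91% to 2.71%.

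**Figure D4:**
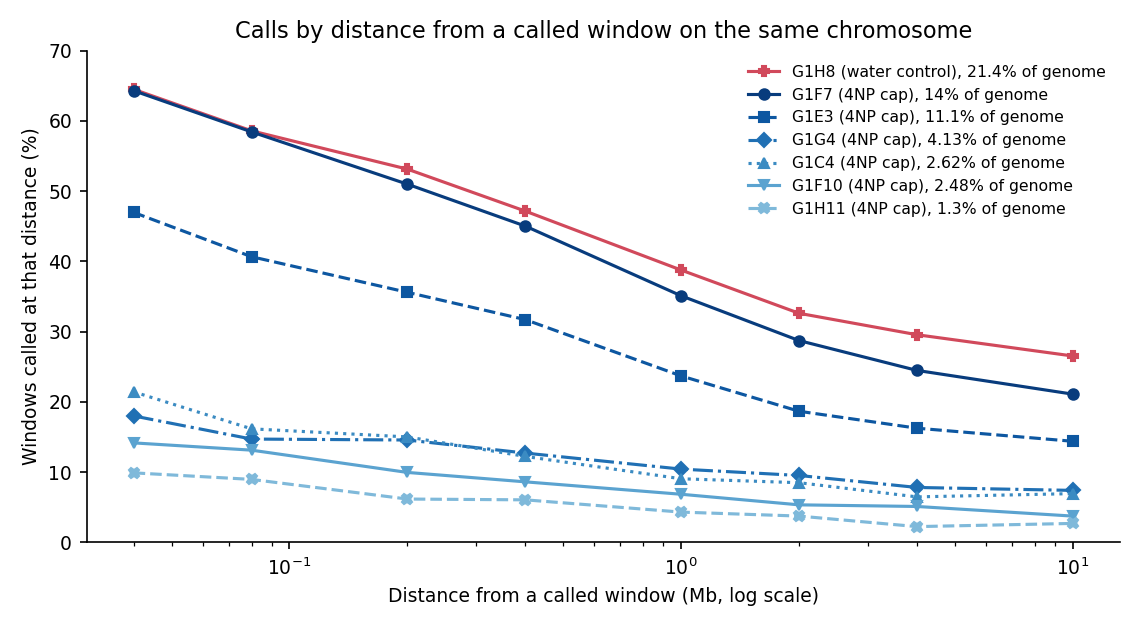
Percent of windows called at a given distance (Mb, log scale) from a called window on the same chromosome, for the 6 4NP libraries with at least 1% of the genome called and the water control G1H8. All curves are lower at 10 Mb than at 40 kb, though those of G1C4 and G1H11 rise slightly from 4 Mb to 10 Mb, and G1H8 runs just above G1F7 from 64.5% and 64.3% at 40 kb to 26.5% and 21.1% at 10 Mb.

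Windows of the larger profile caps overlapped in part with those of G1H8. In each of the 6 libraries the shared part was above the share of all windows that G1H8 called. Among the calls of the 6 4NP libraries above 1%, the share that G1H8 also called was 24.4% in G1E3, 22.7% in G1F7, 24.6% in G1G4, 26.01% in G1C4, 28.8% in G1F10 and 28.8% in G1H11, beside 21.4% of all windows. Seen from the control, 12.7% of the calls of G1H8 were also called in G1E3 and 14.9% in G1F7. G1E3 and G1F7 shared 1190 windows, 16.2% of the calls of G1E3 and 12.9% of those of G1F7. These shares describe single pairs of libraries, with no test.

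The calls of the small libraries were mostly scattered, and few windows recurred between them. The 28 4NP libraries below 1% called 2403 different windows between them, 3.64% of the genome. The window at chr2:125960001-126000000, over exons of Dtwd1 and 4930525F21Rik, was called in 20 of 34 4NP libraries, the most of any. It was called in 17 of the 28 libraries below 1% and in 3 of the 6 above. It was also called in 5 of 6 water controls, in both human DNA controls and in 19.7% of 152 4NP libraries of the other experiments. So its calls were found with and without profiles in the cap.

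A window on chromosome 17 was called in 4NP libraries but in none of the 6 water controls. At chr17:4600001-4640000, where the annotation has no gene, 10 of 34 4NP libraries were positive, 9 of them among the 28 below 1%, and no water or human DNA control of the full collection was. It was called in 23.0% of the 152 4NP libraries of other experiments and in 2 of their 5 water controls, so its absence from the 6 controls here did not extend to the rest of the series. As this window was picked for its count, the contrast with 0 of 6 water controls is a description, with no test. The window holds a tandem tract of 8 units of the pentamer TCCAT at chr17:4626312-4626351 on the forward strand (mm9), which is printed because so long a tract is rare. The most frequent window, on chromosome 2, holds a TG tract of 24 units at chr2:125980646-125980693, printed to show that this kind is common. The chromosome 17 window holds a tract of the same kind and length on the other strand, at chr17:4619264-4619311. The repeated unit is in capitals at the start of each.
Chromosome 17 tract: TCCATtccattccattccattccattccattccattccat
Chromosome 2 tract: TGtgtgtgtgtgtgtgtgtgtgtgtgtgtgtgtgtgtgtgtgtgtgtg

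Tracts of at least 8 units of TCCAT, searched with its reverse complement ATGGA and not overlapping the TG search, lie in 26 of 65983 windows, 0.0394%. TG tracts of at least 24 units, searched with the reverse complement CA, lie in 39.0%. In the other 25 windows with such a TCCAT tract, the 28 4NP libraries below 1% had 14 calls, in 6 windows and 10 libraries. That is 2.00% of library and window pairs, against 0.136% over all windows without the tract. In the 6 4NP libraries above 1% the values were 6% and 5.94%, and in the 5 low water controls there was 1 call, 0.800% against 0.156%. The 2 human DNA controls also had 1 call there, 2.00% against 0.0455%. The tract was chosen after the chromosome 17 window was seen, and these values are given with no test.

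The remaining 3 of the 5 most frequent windows were also frequent in other libraries of the series. The window at chr2:98480001-98520000, over Gm10800 and Gm10801, was called in 10 of 34 4NP libraries, including all 6 above 1%, in G1H8 alone among the water controls and in 84.9% of 152 4NP libraries of other experiments. At chr17:39960001-40000000, over the pseudogene AY036118, it was 9 of 34, again G1H8 alone, both human DNA controls and 62.5% of the 152. At chr16:35960001-36000000, over exons of Parp9, of Kpna1 (an importin that carries proteins into the nucleus) and of Gm15564, it was 9 of 34, 1 low water control, 1 human DNA control and 20.4% of the 152. Of the 5 water controls of other experiments, 1, 4 and 1 called these 3 windows, in this order. The window at chr9:9120001-9160000, in Arhgap42, was the only other one called in at least 3 water controls (3, G1H8 among them), and it was called in 1 4NP library.

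Low water controls and small 4NP libraries shared few windows, though more than the share of the genome those windows make up. The 5 low water controls called 506 windows, 0.767% of the genome, and only 6 windows in more than 1 of them. G1G12 alone had 314 calls, and how far the overlap below rests on it was not tested. In the 21 4NP libraries with 10 to 100 calls, a median of 5.77% of calls fell in those windows (0% to 13.8%). With the Dtwd1 window left out it was 5.00%. In the 10 4NP libraries with over 100 calls the median was 1.104% (0.350% to 4.81%).

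In what the called windows held, the groups differed by less than their spread allowed to call. Called windows were positive in 6.91% ± 0.705 (SD, n = 31) of the 152 4NP libraries of other experiments for the 4NP group and in 6.47% ± 0.477 (SD, n = 6) for water controls, against 5.40% for all windows (exact permutation p = 0.145, adjusted p = 0.333). GC content was 42.5% ± 0.534 and 42.6% ± 0.250, against 41.8% over all windows (exact permutation p = 0.652, adjusted p = 0.734). Exons of protein-coding genes were in 62.0% ± 7.63 and 57.5% ± 4.28 of called windows, against 46.3% of all windows (exact permutation p = 0.174, adjusted p = 0.333). Among 4NP libraries, the coding share ran higher in those with 10 to 100 calls (median 65.0%, 47.2% to 80%) than in those with over 100 (median 57.5%, 53.4% to 70%), as a description. The share of calls on the most covered chromosome was 13.1% ± 4.53 and 12.3% ± 9.40 (exact permutation p = 0.761, adjusted p = 0.761). Without G1H8 none of these 4 measures passed either (adjusted p = 0.884 for each, exact permutation).

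Windows at the start of pluripotency genes showed how thinly the collection sampled single loci. The listed genes encode transcription factors linked to the undifferentiated state of ES cells, and 7 of 8 were found in the annotation. The window of Esrrb was called in 3 4NP libraries (G1E3, G1F7 and G1A10) and in G1H8, and that of Klf4 in G1F7 and G1H8. Those of Sox2 and Nanog were called in 1 4NP library each, G1A2 and G1C4. Sall4 was called in G1H8 alone, and Zfp42 and Pou5f1 in none of the 40. The mean was 0.857 4NP libraries per locus, where the summed coverage of the 34 libraries gives 0.395 per window.

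Position on the plate, as far as library names give it, did not follow the group evenly. Names were read as plate G1, a row letter and a column number, which the labels do not spell out. Water controls lay only in rows G and H, with 2 and 4 libraries, whereas 31 of 34 4NP libraries lay in rows A to F, so in rows A to F row and group cannot be told apart. In columns the groups were mixed: 6 columns held both. In column 8, the 6 4NP libraries had 31 to 45 calls beside 14094 in G1H8. Averaged over the 6 columns, the difference in log10 called windows was -0.26 (exact permutation within columns, p = 0.476, adjusted p = 0.612), and no measure passed. The lowest p was that of recurrence, 0.586 percentage points higher in 4NP libraries (higher in 4 of 6 columns; exact permutation p = 0.0262, adjusted p = 0.236). With the column of G1H8 left out, recurrence differed by 0.565 percentage points (exact permutation p = 0.0679, adjusted p = 0.611) and log10 called windows differed by 0.21 (exact permutation p = 0.595, adjusted p = 0.946).

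**Figure D5:**
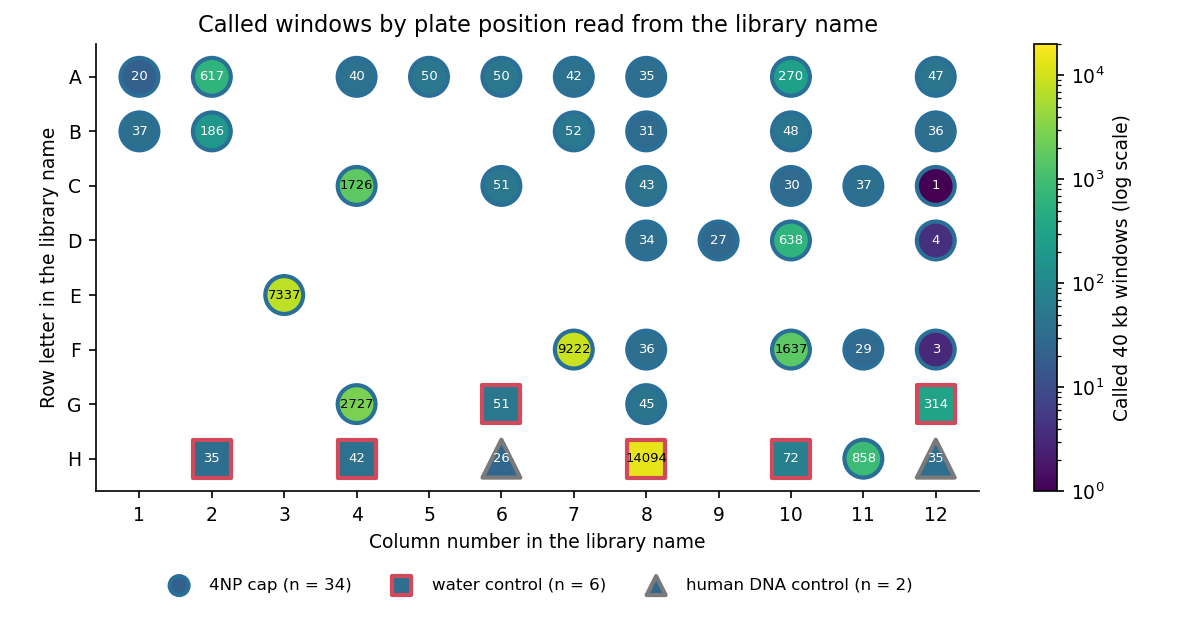
Called windows (number and colour, log scale) at the plate position read from each library name, with circles for 4NP caps, squares for water controls and triangles for human DNA controls. The water controls sit in rows G and H, and G1H8 with 14094 calls shares column 8 with 4NP libraries of 31 to 45 calls.

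Beside the rest of the series, the 4NP libraries of the full collection were small. Their log10 called windows were 1.94 ± 0.87 (SD, n = 34) against 3.15 ± 0.83 (SD, n = 152) in the 4NP libraries of the other 10 experiments, a difference of -1.21 (permutation test with 100000 resamples, p = 1e-05, the smallest it can give, adjusted p = 2e-05). Chromosomes present numbered 1.26 ± 4.08 against 7.11 ± 7.09 (permutation p = 3e-05, adjusted p = 3e-05). Under 1% of the genome was called in 82.4% of the full collection and in 29.6% of the others. The 2 tests exchanged single libraries, although libraries of the same experiment shared a protocol. Their p-values therefore do not measure the spread between experiments, of which the full collection is only 1. How many libraries passed quality control in each experiment was not used, and experiment and protocol cannot be told apart.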

How the data were processed

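The authors aligned reads to mm9 with Bowtie2 (version 2.1 per the labels), removed duplicates with Samtools and called 40 kb windows with GAMtools at a threshold of 4 reads, the same for all libraries, per the paper's methods. The deposited values are other than counts: calls of 0 or 1 per window, without depth. Each of 199 columns matched 1 sample by its well name. Of 68162 rows, 65983 on chromosomes 1 to 19 and X were used, and 2179 rows (Y, mitochondrial, random) were left out of the tests. Chromosome lengths matched the NCBIM37 assembly, and genes came from GENCODE M1.

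Groups followed sample titles. The members and lists were chosen with earlier results of these data known. Means were compared with a two-sided exact permutation test with full enumeration, adjusted by the Benjamini-Hochberg method over 9 measures, or over 20 chromosomes. The last 5 measures (calls in stretches, top chromosome, recurrence, GC, coding exons) needed at least 10 calls. Splits numbered 3838380 for the first 4 measures and the chromosomes (575757 without G1H8) and 2324784 for the last 5 (376992). The top chromosome is the one with the largest share of its windows called. Nothing in the labels says that caps of a group came from separate cultures, so p-values measure the spread between caps.

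Named were all 20 chromosomes, libraries with at least 5% called, every water control, the 5 windows called in most 4NP libraries, windows called in at least 3 water controls, the longest stretch of each library above 5%, and a list of 8 pluripotency genes (Tfcp2l1 was not matched). Other libraries and the X stretch of G1H10 were named after their values were seen. The tests were checked on simulated data. Python 3.11.15, NumPy 2.4.6, pandas 2.3.3 and SciPy 1.17.1 were used.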

Additional observations from a re-analysis of the deposited data

Results flagged for a closer look

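Water control G1H8 stood apart from the other 5 water controls in 5 of the 9 measures, since its gap to the nearest of them was a larger part of the group's range than Dixon's 95% critical value for 6 samples allows. Its log10 of called windows plus 1 was 4.15, with a gap of 0.637 of the range. It had 18 chromosomes present, 1708 stretches, a longest stretch of 59 windows and 69.7% of its calls in stretches, with gaps of 1.00, 0.999, 0.948 and 0.920 of the range. The other 5 controls had 0 chromosomes present and 0 or 1 stretches, so for the measures of chromosomes and stretches any clearly higher value would give a gap near the whole range, and these gaps say nothing of its size. Chance flags about 1 in 20 groups, and these 5 measures come from 1 library and rise together. How its calls arose was not tested. The label of this library as an empty cap was kept, whether the cap was empty cannot be told from the calls, and the tests of 4NP libraries against water controls are given with and without it.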

How the results depend on the processing

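No measure passed an adjusted p of 0.05 between 4NP libraries and water controls under any setting run, so none of these differences was called. Of 468 alternative values, 448 kept the direction and side of the threshold. Most changes came in settings that left out G1H8 or its whole plate column. Leaving out each of the 40 libraries in turn, the difference (4NP minus water) ran from -0.43 to 0.087 for log10 called windows, from -2.34 to 1.26 chromosomes present, from -281 to 60.3 stretches, from -9.69 to 1.91 windows for the longest stretch and from -10.1 to 3.84 percentage points for calls in stretches; the sign turned only without G1H8. It ran from -0.862 to 4.14 for the top chromosome (turned without G1H4, G1H8 or G1G12), from 0.309 to 0.545 for recurrence, from -0.152 to -0.0366 for GC and from 3.57 to 5.55 for coding exons, and 0 chromosomes were called each time. Within plate columns without the column of G1H8, the sign also turned for log10 called windows (0.21), chromosomes present (0.613), stretches (11.1), longest stretch (0.753), calls in stretches (0.837) and coding exons (-0.602). With rows G and H only, which leave 3 4NP libraries, it turned for log10 called windows (0.44), recurrence (-0.0858) and coding exons (-4.49). With a minimum of 1 call, GC content turned to 0.0936. The cause was not tested. Against other experiments, libraries with at least 1% called gave -0.15 for log10 called windows and -2.94 chromosomes (adjusted p = 0.302 for both, permutation test). That subset is chosen on the measure tested and leaves 6 full collection libraries, so it does not bear on the difference. Leaving out windows called in the 5 low water controls was not run, since it removes all calls of those controls by construction. No paired analysis was possible because the labels give no replicate numbers that pair 4NP libraries with water controls. Depth is unknown, so few calls and few reads cannot be told apart.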
